A study of Homo sapiens with 6 samples.

Results

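The insulin-like growth factor (IGF) system was described here through 10 genes, chosen by their symbols: the receptors IGF1R, INSR and IGF2R, the adaptor IRS1 and the binding proteins IGFBP2, IGFBP3, IGFBP4, IGFBP5, IGFBP6 and IGFBP7. These were 10 of the 60606 genes in the table, each present as 1 row. The irradiated group was 3 tumors of MDA-MB-231, a human triple-negative breast cancer cell line with mutant p53, grown from unmodified cells with Matrigel under the skin of the left flank of NSG mice, and given 1 local dose of 10 Gy of 6 MV X-rays, at 6 Gy per minute, at a volume of about 800 mm3. These tumors were taken 3 days after the dose. The control group was 3 tumors of the same line, host and site that were not irradiated, and no volume or collection time of their own is given for them. NSG mice lack T, B and natural killer cells but keep fibroblasts, vessels and macrophages, so the RNA of a whole tumor can hold mouse transcripts that align to human genes. The labels do not say that each tumor came from a separate mouse, and a p-value here reflects the spread among the 6 samples, which may be technical.

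IGF1 and IGF2 bind IGF1R, a receptor tyrosine kinase that signals through IRS adaptors to PI3K, AKT and mTOR and promotes growth and survival. INSR, the insulin receptor, is its close homologue, and the pair can form hybrid receptors. IGF2R, also the cation-independent mannose 6-phosphate receptor, has no kinase: it takes up and clears IGF2 and carries newly made acid hydrolases to lysosomes. The IGF-binding proteins are secreted, hold the ligands in the extracellular space, and are cut by proteases that set them free. IGF1R signalling has been studied as a source of resistance to radiation in breast cancer cells.

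Levels are in TPM, the share of each transcript after scaling for its length, so they can be compared between genes. A fold change is the mean log2(TPM + 1) of irradiated tumors less that of control tumors, and adding 1 TPM makes it too small for low genes. Adjusted p-values come from limma, with Benjamini-Hochberg adjustment over 14140 genes that averaged 1 TPM or more. In bulk tumors, fewer cells of a type and less RNA per cell cannot be told apart. Over all genes tested, 421 were called (2.98%) at an adjusted p of 0.05, and 20.5% had an unadjusted p under 0.05. The first principal component (40.4% of the variance) separated the groups, and the second (19.1%) set control tumor 2 apart. All 10 markers of the MDA-MB-231 line were measured and 0 were called (4 at an unadjusted p under 0.05), with 4 fold changes above 0 and sums of 13154.5 to 13997.3 TPM in irradiated and 10958.4 to 13515.3 TPM in control tumors. Among them VIM was at 3148 to 3685 TPM in irradiated and 3797 to 5283 TPM in control tumors, and LGALS1 was at 7098 to 8880 TPM in irradiated and 4987 to 6032 TPM in control tumors. ESR1 and PGR did not exceed 0.32 TPM in any tumor. Of 11 fibroblast markers 8 were measured and 3 were called lower, and the list summed to 137 to 222 TPM in irradiated and 486 to 1028 TPM in control tumors, with LUM, THY1 and PDGFRA under 1 TPM in every tumor. Of 14 skeletal muscle markers 12 were measured and 3 were called lower, with sums of 4.63, 188 and 6.67 TPM in irradiated tumors 1, 2 and 3 and of 266 to 664 TPM in control tumors. MYH1, MYH2 and CASQ1 of this list and POSTN and DCN of the fibroblast list passed the filter on low values only through control tumors. DCN did so through control tumor 1 alone (4.82 TPM). In control tumors 2 and 3 DCN was at 0.04 and 0 TPM, below all irradiated tumors. Of 10 endothelial markers 5 were measured and 0 called (2 at an unadjusted p under 0.05), with sums of 90.3 to 129.8 TPM in irradiated and 63.4 to 79.35 TPM in control tumors. Most of this sum was ENG and ESAM. Of 11 macrophage markers 3 were measured and 0 called (2 at an unadjusted p under 0.05), with sums of 108 to 207 TPM in irradiated and 87.6 to 108 TPM in control tumors. CD68 made up most of this sum. Of the list 8 were under 1 TPM in every tumor, with TYROBP, C1QA and C1QB at 0 in all 6.

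No receptor, adaptor or binding protein of the 10 passed the test in limma (0 of 10, against 2.98% of all genes tested), and 4 had an unadjusted p under 0.05, all with higher means in irradiated tumors, against 20.5% of all genes tested, 8.93% higher. These 4 were IGF2R, IGFBP2, IGFBP4 and IGFBP6. IGFBP2 passed the filter on low values only through irradiated tumors and IGFBP5 only through control tumors, so a difference in them was favoured by the filter, and the counts are a description. In IGF2R, IGFBP2, IGFBP4 and IGFBP6 all 3 irradiated tumors lay above all 3 control tumors, and in 0 of the 10 genes did the groups separate the other way. Over all genes tested the groups did not overlap in 26.6%, with 11.6% higher and 15% lower in irradiated tumors. The median log2 fold change of the 10 was -0.22, and that of all genes tested -0.056. IGF1R, INSR, IRS1, IGFBP3, IGFBP5 and IGFBP7 had overlapping groups and point estimates below 0.

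**Figure D1:**
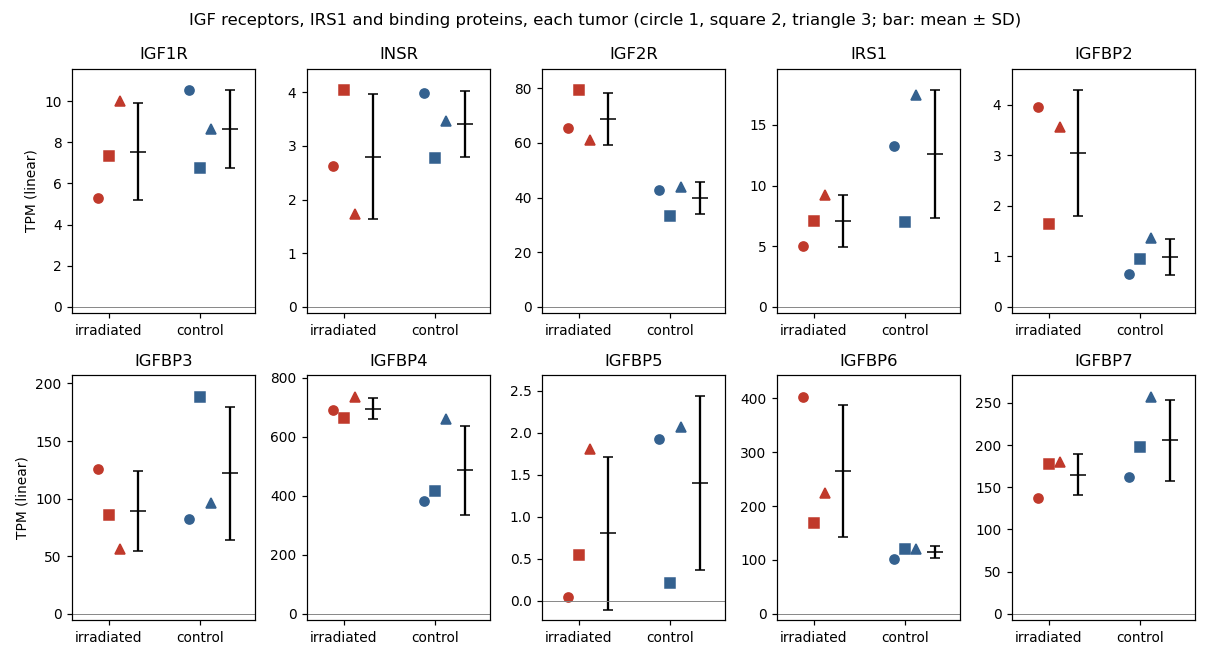
Level of each gene in TPM on linear axes, 1 panel per gene, with irradiated tumors in red and control tumors in blue and the mean ± SD (n = 3 per group) beside the points. All 3 irradiated values lie above all 3 control values for IGF2R, IGFBP2, IGFBP4 and IGFBP6, and the groups overlap for the other genes.

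**Figure D2:**
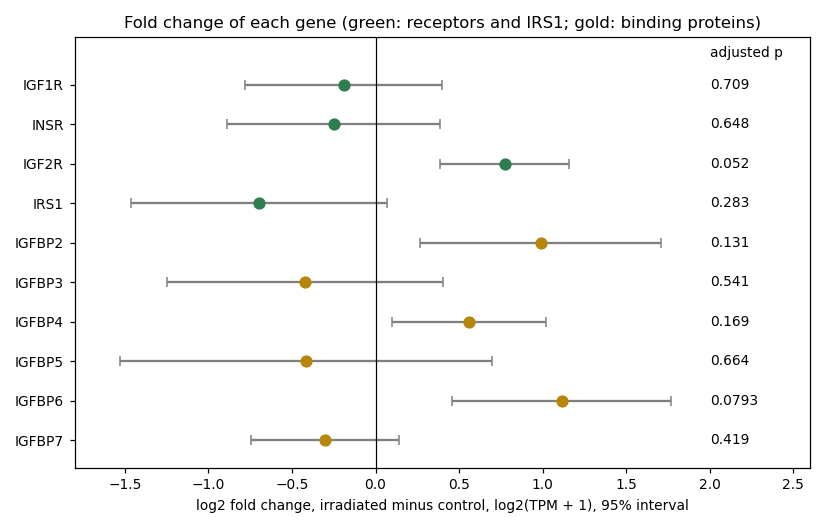
Log2 fold change of each gene with its 95% interval from limma and the adjusted p at the right. IGF2R has the lowest adjusted p (0.052), and the intervals of IGF1R, INSR, IRS1, IGFBP3, IGFBP5 and IGFBP7 include 0.

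The genes covered a wide span of levels. IGFBP4 was the most abundant in every tumor, and its mean over the 6 tumors exceeded that of 98.4% of genes tested. In irradiated tumors the order by mean was IGFBP4, IGFBP6, IGFBP7, IGFBP3, IGF2R, IGF1R, IRS1, IGFBP2, INSR and IGFBP5. Among irradiated tumors the ranges overlapped for IGFBP6 and IGFBP7, IGFBP3 and IGF2R, IGF1R and IRS1, IGFBP2 and INSR, and INSR and IGFBP5. In control tumors the order was IGFBP4, IGFBP7, IGFBP3, IGFBP6, IGF2R, IRS1, IGF1R, INSR, IGFBP5 and IGFBP2. There the ranges overlapped for IGFBP7 and IGFBP3, IGFBP3 and IGFBP6, IRS1 and IGF1R, and IGFBP5 and IGFBP2. Compared within a tumor, IGF1R lay above IRS1 in each irradiated tumor and below it in each control tumor. IGFBP7 lay above IGFBP3 within each control tumor. IGFBP6 stood above IGFBP7 and IGFBP3 by mean in irradiated tumors and below both in control tumors.

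IGF2R (ENSG00000197081, chromosome 6 from 159969099 to 160113507 on the plus strand, GRCh38) was at 65.4, 79.3 and 61.2 TPM in irradiated tumors 1, 2 and 3, against 42.6, 33.1 and 43.7 TPM in control tumors 1, 2 and 3. The lowest irradiated tumor lay above the highest control tumor. The means were 68.65 ± 9.46 TPM in irradiated and 39.8 ± 5.84 TPM in control tumors (SD, n = 3 each), a ratio of 1.72. The log2 fold change was 0.77 (95% interval 0.39 to 1.16), and the limma adjusted p of 0.052 missed the threshold. It passed with medians of ratios (adjusted p = 0.0262), quantile normalization (0.0202), without mitochondrial and ribosomal protein genes (0.0312) and with a minimum mean of 5 TPM (0.0441), and lay between 0.0202 and 0.172 over all 15 alternatives. No other gene shares exons with IGF2R in GENCODE 29. Cathepsin D (CTSD), a lysosomal protease whose precursor IGF2R can carry, was at 393, 362 and 388 TPM in irradiated and 253, 309 and 297 TPM in control tumors (log2 fold change 0.42, limma adjusted p = 0.116), also without overlap between the groups. CTSD shares 41.7% of its exonic bases with a gene on the same strand, so its reads can be divided in more than 1 way.

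The 250 bases upstream of the RefSeq start are shown for IGF2R and IGFBP4, which both lay higher in every irradiated tumor and whose upstream windows lie outside the annotated gene. IGFBP2, also higher in every irradiated tumor, had more than 1 window and is not shown. Capitals mark CACGTG, the E-box bound by basic helix-loop-helix factors, in IGF2R (chr6:159968832-159969081, plus strand, GRCh38.p14), and TATAAA, the TATA box, in IGFBP4 (chr17:40443200-40443449, plus strand).
IGF2R: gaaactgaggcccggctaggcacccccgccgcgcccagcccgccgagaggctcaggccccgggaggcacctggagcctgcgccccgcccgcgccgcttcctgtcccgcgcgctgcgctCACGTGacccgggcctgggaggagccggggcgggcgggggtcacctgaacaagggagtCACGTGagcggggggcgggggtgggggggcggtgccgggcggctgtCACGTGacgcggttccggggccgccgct
IGFBP4: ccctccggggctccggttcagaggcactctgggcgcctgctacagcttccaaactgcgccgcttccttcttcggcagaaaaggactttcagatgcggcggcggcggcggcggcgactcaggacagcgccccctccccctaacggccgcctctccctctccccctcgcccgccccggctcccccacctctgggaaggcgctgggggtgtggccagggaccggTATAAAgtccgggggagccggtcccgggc
The IGF2R window holds 3 copies of CACGTG, which reads the same on both strands, with first bases at -132, -74 and -28 relative to the start. Of 34943 RefSeq upstream windows of this length, 6.32% hold at least 1 copy and 28 windows (0.0801%) hold at least 3. The IGFBP4 window holds TATAAA once, with its first base at -29, and 10.8% of all windows hold it on either strand. Of the 10 genes 9 had an upstream window, IGFBP2 more than 1, and among them CACGTG was found only in that of IGF2R and TATAAA only in that of IGFBP4. GGGCGG, the core of GC boxes bound by SP1, occurred in a window of 8 of these 9 genes, counted on both strands with overlapping copies, and in 42.5% of all windows. TTCNNNGAA, the STAT element, occurred in 0 windows of these 9 genes, against 6.56% of all windows, and the core of the interferon-response element in 0, against 3.02%. The motifs were picked after the sequences were read, so the shares of windows are a description. A match describes the letters only.

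IGF1R (ENSG00000140443, chromosome 15 from 98648539 to 98964530) was at 5.30, 7.34 and 10.01 TPM in irradiated tumors, against 10.53, 6.75 and 8.64 TPM in control tumors. The groups overlapped across their range. The means were 7.55 ± 2.36 and 8.64 ± 1.89 TPM in irradiated and control tumors (SD, n = 3 each). The log2 fold change was -0.19 with an interval of -0.78 to 0.40 (limma adjusted p = 0.709), which spans 0. INSR (ENSG00000171105, chromosome 19 from 7112255 to 7294034, minus strand) was lower than IGF1R in every tumor, at 2.63, 4.04 and 1.73 TPM in irradiated and 3.99, 2.77 and 3.46 TPM in control tumors. The means were 2.80 ± 1.16 TPM in irradiated and 3.41 ± 0.612 TPM in control tumors (SD, n = 3 each). Its log2 fold change was -0.25 with an interval of -0.89 to 0.39 (limma adjusted p = 0.648). IGF1R made up 66.8%, 64.5% and 85.3% of the summed TPM of both receptors in irradiated tumors, against 72.5%, 70.9% and 71.4% in control tumors. The share was spread far more widely among irradiated tumors (SD 11.4 percentage points) than among control tumors (0.828), with irradiated tumor 3 highest of the 6. Its mean was 72.2% in irradiated and 71.6% in control tumors (exact two-sided permutation p = 1, where 3 tumors against 3 cannot give less than 0.1), and without irradiated tumor 3 the difference was -5.94 percentage points.

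IRS1 (ENSG00000169047, chromosome 2 from 226731317 to 226799759, minus strand), which docks on the activated receptors and recruits PI3K, was at 4.99, 7.05 and 9.24 TPM in irradiated tumors, against 13.28, 6.97 and 17.47 TPM in control tumors. Control tumor 2 lay among the irradiated tumors, and the other control tumors above all of them. The means were 7.09 ± 2.13 TPM in irradiated and 12.6 ± 5.29 TPM in control tumors (SD, n = 3 each), with a log2 fold change of -0.70 (95% interval -1.46 to 0.070, limma adjusted p = 0.283). Without control tumor 2 the log2 fold change was -1.04 (adjusted p = 0.0785), and without control tumor 3 it was -0.43 (0.586). The 10 proliferation genes summed to 507, 485 and 542 TPM in irradiated and 828, 550.05 and 765 TPM in control tumors. Control tumor 2 was the lowest control tumor in 8 of them, lay above all irradiated tumors in 6 and did not in 4 (MKI67, CCNB1, AURKA and PLK1). Ribosomal protein genes made up 27.0% of the summed TPM of control tumor 2. They made up 20.5% and 19.8% in control tumors 1 and 3, and 21.4% to 22.3% in irradiated tumors. A larger share of these genes leaves less TPM for the others. The part of proliferation or of the ribosomal share in the IRS1 values was not tested. IRS2, the other widely used adaptor, was at 2.46, 2.37 and 2.73 TPM in irradiated and 3.83, 3.41 and 5.13 TPM in control tumors, without overlap (log2 fold change -0.53, limma adjusted p = 0.225).

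IGFBP6 (ENSG00000167779, chromosome 12 from 53097436 to 53102345), which prefers IGF2 over IGF1, had the largest log2 fold change of the 10 on the log2(TPM + 1) scale, while IGFBP2 had the larger ratio of means (3.08, against 2.32 for IGFBP6) and the larger log2 fold change with a pseudocount of 0.1 TPM (1.49, against 1.12). It was at 402, 168 and 223.5 TPM in irradiated tumors 1, 2 and 3, against 101.5, 120.1 and 120.4 TPM in control tumors. The control tumors lay close together, and irradiated tumor 1 was highest by far. The means were 265 ± 122 TPM in irradiated and 114 ± 10.8 TPM in control tumors (SD, n = 3 each), a ratio of 2.32. The log2 fold change was 1.11, with a 95% interval of 0.46 to 1.77 and a limma adjusted p of 0.0793, and it was 0.76 without irradiated tumor 1 (adjusted p = 0.147). It did not pass in any of the 15 alternatives (adjusted p from 0.0647 to 0.220). No other annotated gene shares its exons.

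IGFBP4 (ENSG00000141753, chromosome 17 from 40443461 to 40457731), which inhibits IGF action until the protease PAPPA cuts it, was at 690, 662 and 734 TPM in irradiated tumors, against 381, 417 and 658 TPM in control tumors. Irradiated tumor 2, the lowest of its group, exceeded control tumor 3 by little. The means were 695 ± 36.3 TPM in irradiated and 485 ± 151 TPM in control tumors (SD, n = 3 each), and the log2 fold change was 0.56, with a 95% interval of 0.096 to 1.02 and a limma adjusted p of 0.169. Leaving out control tumor 3 gave 0.80 (adjusted p = 0.0606), and leaving out control tumor 1 gave 0.41 (0.376). PAPPA did not exceed 0.10 TPM in any tumor.

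IGFBP2 (ENSG00000115457, chromosome 2 from 216632828 to 216664436), which carries an integrin-binding RGD motif, was near the lower limit of the genes tested. It was at 3.95, 1.63 and 3.55 TPM in irradiated tumors, against 0.65, 0.94 and 1.37 TPM in control tumors. Irradiated tumor 2 lay closest to the control tumors. The means were 3.04 ± 1.24 TPM in irradiated and 0.987 ± 0.362 TPM in control tumors (SD, n = 3 each). The log2 fold change was 0.99, with a 95% interval of 0.27 to 1.71 and a limma adjusted p of 0.131, and with a pseudocount of 0.1 or 5 TPM it was 1.49 or 0.42. A gene that low could pass the filter through its irradiated values, so its passing gives no support. Its neighbour IGFBP5 (ENSG00000115461, chromosome 2 from 216672105 to 216695525, minus strand), tail to tail with it across 7668 bases, was at 0.05, 0.55 and 1.81 TPM in irradiated and 1.93, 0.21 and 2.07 TPM in control tumors (log2 fold change -0.42, 95% interval -1.53 to 0.70, limma adjusted p = 0.664). Within each group IGFBP5 varied more than the group means differed.

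IGFBP3 (ENSG00000146674, chromosome 7 from 45912245 to 45921874, minus strand), the main carrier of IGFs in blood and a known target of p53 and of hypoxia, was at 125.8, 85.4 and 56.6 TPM in irradiated tumors, against 81.9, 188 and 95.7 TPM in control tumors. Control tumor 2 was the highest of the 6 and irradiated tumor 3 the lowest. The means were 89.25 ± 34.7 TPM in irradiated and 121.9 ± 57.8 TPM in control tumors (SD, n = 3 each). The estimate was -0.42 on the log2 scale (95% interval -1.25 to 0.41, limma adjusted p = 0.541), and it was -0.062 without control tumor 2 and -0.13 without irradiated tumor 3. Its neighbour IGFBP1, 18576 bases away on the plus strand and not among the 10 genes, was at 11.63, 9.67 and 9.63 TPM in irradiated and 19.69, 10.26 and 22.21 TPM in control tumors. The log2 fold change of IGFBP1 was -0.64 (limma adjusted p = 0.240). Of its 15 alternatives, leaving out control tumor 2 was the only 1 in which it passed (-0.96, adjusted p = 0.0374).

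IGFBP7 (ENSG00000163453, chromosome 4 from 57030773 to 57110385, minus strand), a relative with low affinity for IGFs that is abundant in vessel walls, was at 137, 177 and 180 TPM in irradiated tumors, against 162, 197 and 257 TPM in control tumors. The groups overlapped in their middle. The means were 165 ± 24.1 TPM in irradiated and 205 ± 47.9 TPM in control tumors (SD, n = 3 each). The log2 fold change was -0.30, with a 95% interval of -0.75 to 0.14 and a limma adjusted p of 0.419. The gene shares 13.99% of its exonic bases with POLR2B on the opposite strand, and whether counting used strand is not given in the sources used here. Control tumor 3, with the highest IGFBP7, also had the highest fibroblast sum, 1028 TPM, and the highest skeletal muscle sum, 664 TPM. Among irradiated tumors IGFBP7 was highest in tumor 3, and the fibroblast sum was highest in tumor 2 (222 TPM). The fibroblast sum, most of it COL1A1 and COL1A2, was lower in every irradiated tumor, while PDGFRB of that list averaged 8.09 TPM in irradiated and 3.51 TPM in control tumors. The endothelial sum, most of it ENG and ESAM, was higher in every irradiated tumor. Of that list PECAM1, CDH5, TIE1 and ROBO4 also had higher means in irradiated tumors, and VWF, KDR, TEK and CLDN5 lower ones. The part of stromal RNA in the levels of the binding proteins was not tested.

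Summed over IGFBP2 to IGFBP7, binding-protein transcripts came to 1359, 1095 and 1199.8 TPM in irradiated tumors, against 729, 924 and 1135 TPM in control tumors. Control tumor 3 lay above irradiated tumor 2. The mean was 1218 ± 133 TPM in irradiated and 929 ± 203 TPM in control tumors (SD, n = 3 each; exact two-sided permutation p = 0.2). Because a share within a tumor is not moved by scaling of that tumor, the make-up of this sum was compared as well. IGFBP4 held 50.8%, 60.5% and 61.2% in irradiated and 52.2%, 45.2% and 58.0% in control tumors (exact permutation p = 0.3). IGFBP6 held 29.6%, 15.4% and 18.6% in irradiated tumors, against 13.9%, 13.0% and 10.6% in control tumors, all higher. IGFBP7 held 10.1%, 16.2% and 15.0% in irradiated tumors, against 22.2%, 21.4% and 22.6% in control tumors, all lower. The exact permutation p was 0.1 for IGFBP6 and for IGFBP7, the smallest that 3 tumors against 3 can give, and 0.2 after adjustment over the 6 shares. The same p and adjusted p held for IGFBP2, whose share was 0.149% to 0.296% in irradiated and 0.0891% to 0.121% in control tumors. Shares add to a fixed total, so a higher share of IGFBP6 lowers the others. IGFBP3 held 4.72% to 9.26% in irradiated and 8.44% to 20.4% in control tumors, and IGFBP5 held under 0.30% in all 6.

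**Figure D3:**
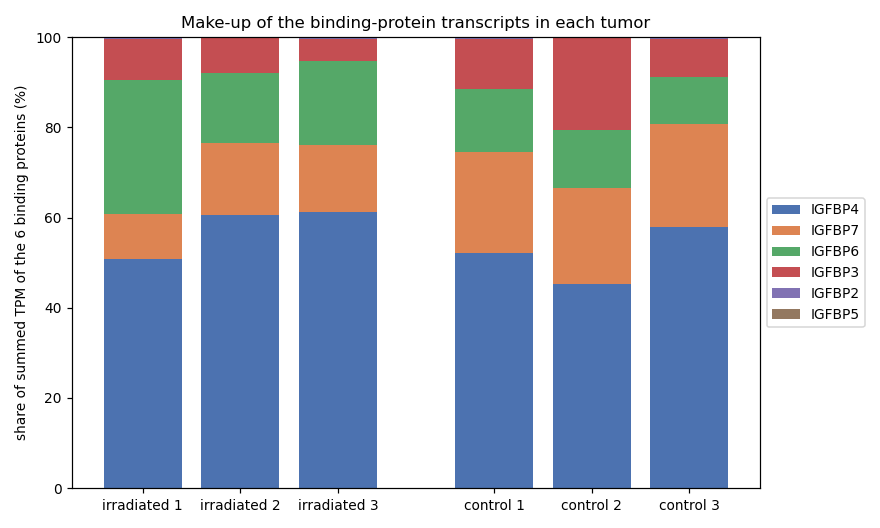
Share of each binding protein in the summed TPM of IGFBP2 to IGFBP7, as stacked bars for the 3 irradiated and 3 control tumors. IGFBP4 is the largest part of every bar (45.2% to 61.2%), IGFBP6 holds 15.4% to 29.6% in irradiated and 10.6% to 13.9% in control tumors, and IGFBP7 10.1% to 16.2% in irradiated and 21.4% to 22.6% in control tumors.

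The ligands were scarce in the human-aligned RNA. IGF2 was at 0.66, 0.67 and 2.57 TPM in irradiated and 0.62, 0.51 and 1.94 TPM in control tumors (log2 fold change 0.15, limma adjusted p = 0.868). The exons of IGF2 overlap those of other rows, so reads can be divided between them. None of those rows exceeded 0.84 TPM in any tumor, and the row that shares most bases (73.71%) was at 0 in all 6. IGF1 did not exceed 0.42 TPM in irradiated and 0.01 TPM in control tumors, and INS was listed at 0 in all 6. Of 10 proteases that cut binding proteins, or proteins that act on such proteases, 5 were measured and 0 were called. An unadjusted limma p under 0.05 was found for 2 of the 5, against 20.5% of all genes tested. Stanniocalcin 2 (STC2), an inhibitor of PAPPA, was at 2.19, 2.29 and 1.43 TPM in irradiated and 0.71, 0.29 and 1.41 TPM in control tumors (log2 fold change 0.75, limma adjusted p = 0.222). STC2 passed the filter on low values only through irradiated tumors, so its difference and its place in that count give no support. Within other binding and carrier proteins, IGFBPL1 was at 1.93 to 4.10 TPM in irradiated and 3.10 to 4.76 TPM in control tumors (limma adjusted p = 0.728).

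Across the pathway outside the 10 genes, 61 of 74 listed genes were measured, of which 0 were called higher and 1 was called lower, against 1.37% and 1.61% of all genes tested. Their median log2 fold change was -0.056, as it was for all genes tested. The call was PIK3R2, a regulatory subunit of PI3K, at 2.68, 5.27 and 3.22 TPM in irradiated and 32.3, 17.5 and 26.3 TPM in control tumors (log2 fold change -2.48, limma adjusted p = 0.00427). However, PIK3R2 shares 87.25% of its exonic bases with AC007192.1 on the same strand, which was at 38.0, 44.5 and 51.5 TPM in irradiated and 35.7, 33.6 and 32.7 TPM in control tumors. With both rows summed, the values were 40.7, 49.8 and 54.7 TPM in irradiated and 68.0, 51.1 and 58.95 TPM in control tumors, and the call was lost (log2 fold change -0.29, limma adjusted p = 0.373).

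Of 11 measured receptor-proximal adaptors 0 were called (2 at an unadjusted p under 0.05, against 20.5% of all genes tested). SHC1, which links receptors to RAS, was at 187, 185 and 183 TPM in irradiated and 141, 104 and 126 TPM in control tumors. Its estimate was 0.59 on the log2 scale (limma adjusted p = 0.0702). SHC1 passed with medians of ratios (adjusted p = 0.0289), with quantile normalization (0.0297) and without mitochondrial and ribosomal protein genes (0.0377), within a range of 0.0289 to 0.220 over its 15 alternatives. Of 14 measured inhibitors 0 were called (4 at an unadjusted p under 0.05, against the same 20.5%). TRIB3, a pseudokinase that binds AKT, was at 14.8, 13.6 and 14.05 TPM in irradiated and 8.74, 7.01 and 11.2 TPM in control tumors (log2 fold change 0.62, limma adjusted p = 0.127). The groups overlapped for neither SHC1 nor TRIB3.

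PIK3CA, the catalytic subunit p110 alpha, had a log2 fold change of -0.66 (limma adjusted p = 0.158) and shares 35.8% of its exonic bases with a gene on the opposite strand. FOXO4, a factor that AKT holds out of the nucleus, was at 6.57 to 7.74 TPM in irradiated and 4.62 to 4.82 TPM in control tumors (log2 fold change 0.51, limma adjusted p = 0.157), while its relative FOXO3 was at 3.40 to 5.31 TPM in irradiated and 5.23 to 6.13 TPM in control tumors (-0.39, limma adjusted p = 0.334). The mRNA-binding proteins IGF2BP2 and IGF2BP3, which bind IGF2 mRNA among others, had log2 fold changes of -0.53 and -0.41 (limma adjusted p = 0.340 and 0.243). IGF2BP3 shares 17.87% of its exonic bases with a more abundant gene on the opposite strand. Of 10 proliferation genes 0 were called (6 at an unadjusted p under 0.05, against 20.5% of all genes tested). All 10 fold changes lay below 0, and CCNA2 and TYMS had the smallest p (log2 fold changes -0.62 and -0.70, limma adjusted p = 0.1203 and 0.0703). TYMS shares 39.15% of its exonic bases with a gene on the opposite strand, and CCNA2 shares 9.08%.

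**Figure D4:**
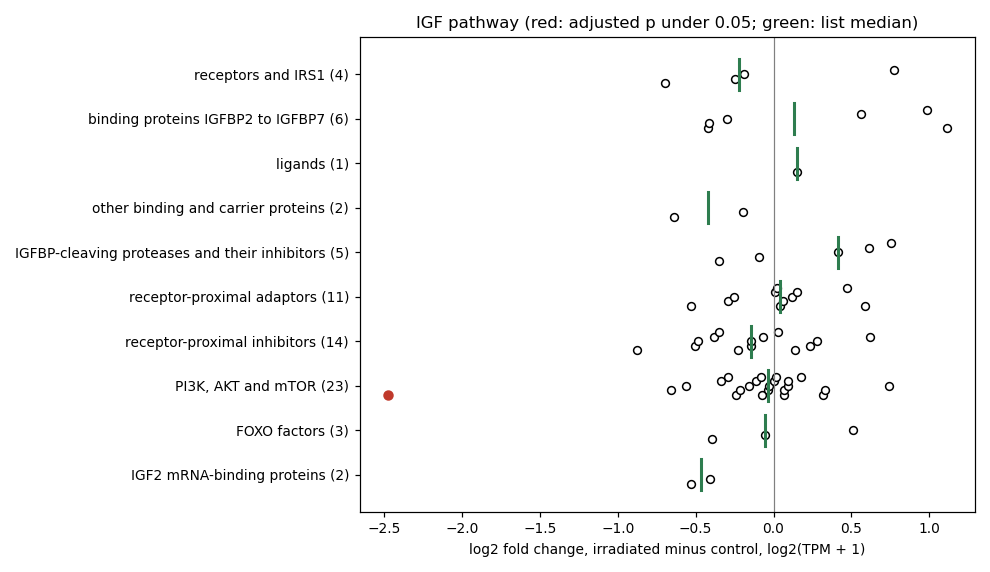
Log2 fold change of every measured gene of the IGF pathway, 1 row per list with the number of genes in brackets, with a green line at each list's median and a filled red point for a limma adjusted p under 0.05. The red point is PIK3R2 at -2.48, whose call was lost when it was summed with the gene that shares its exons.

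Correlation of log2(TPM + 1) over the 6 tumors was taken with 9887 other genes that averaged 5 TPM or more. Clone names, LOC and LINC names and genes without a symbol were then skipped. Of the rest, the genes most like IGFBP6 were CTF1 (Pearson r = 0.994), OSBPL10 (0.989), CLIC3 (0.986), AMACR (0.982) and GDE1 (0.978). CLIC3, a chloride channel-like protein, was at 15.0, 6.15 and 9.84 TPM in irradiated and 4.18, 4.67 and 4.07 TPM in control tumors, so it too was highest in irradiated tumor 1. The genes most like IGF2R were RHBDD3 (r = 0.986), MMP19 (0.985), OAZ2 (0.985), TMEM199 (0.984) and HYAL2 (0.983). OAZ2, an antizyme that limits polyamine levels, was at 152, 189 and 164 TPM in irradiated and 116, 97.6 and 122.5 TPM in control tumors. With 6 points from 2 groups, chosen from the highest of 9887, these values are a description of the tumors.

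**Figure D5:**
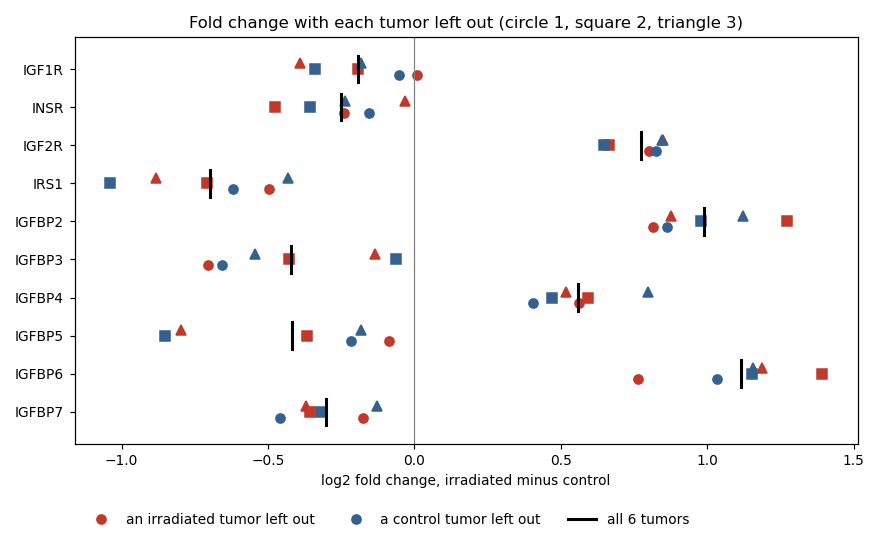
Log2 fold change of each gene with 1 tumor left out in turn (red where an irradiated tumor and blue where a control tumor was left out) and with all 6 tumors (black line). IGF2R stays between 0.65 and 0.85, IGFBP6 between 0.76 and 1.39, and IGF1R crosses 0 without irradiated tumor 1 (0.010).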

How the data were processed

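RNA of 6 xenograft tumors (3 irradiated, 3 control) was sequenced from TruSeq libraries of total RNA, per the labels' protocols. TPM were computed and deposited by the authors to 2 decimals, 1 column per tumor. Per the submitters' processing notes, HISAT2, StringTie, RSEM and hg38 were used. For the versions, the annotation, the use of strand and the handling of mouse reads: not given in the sources used here. TPM keeps no depth, so the reads behind a value are unknown, no counting interval is given, and no count test was run.

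The 14140 genes that averaged 1 TPM or more were fitted with limma 3.58.1 in R 4.3.3 (eBayes with trend) on log2(TPM + 1), with group as the only term, two-sided, and with Benjamini-Hochberg adjustment at 0.05. A run of the fit on data simulated with independent noise checked the code only and gives no support to the calls. Sums and shares were compared by exact permutation over the 20 splits of the tumors. Positions and exon overlap are from GENCODE 29 (GRCh38), and upstream sequences from RefSeq (GRCh38.p14). The 10 genes and all lists were chosen with earlier results of these data known, and the motifs after the sequences were read. Named pathway genes are the called ones and the 2 with the smallest p of each list, the ligands and IGFBP1. A gene that this rule names is not reported here. Likeness was taken for the gene, and for the receptor or adaptor, with the largest change on the log2(TPM + 1) scale; by ratio of means IGFBP2 exceeds IGFBP6. MKI67, CCNB1, AURKA, PLK1, PAPPA, POLR2B, AC007192.1 and the marker genes fall outside that rule and were named after their values were seen. No tumor was left out of the comparison.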

Additional observations from a re-analysis of the deposited data

How the results depend on the processing

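The directions of IGF2R, IRS1, INSR and all 6 binding proteins held in every alternative in which they were tested, and IGFBP2, IGFBP5 and INSR were not tested at a minimum mean of 5 TPM. That of IGF1R turned without irradiated tumor 1 (log2 fold change 0.010, with a range of -0.39 to 0.010 over the tumors left out), that of IGFBPL1 likewise (0.067, range -0.33 to 0.067), and that of IGF2 without irradiated tumor 3 (-0.21) or control tumor 2 (-0.024, range -0.21 to 0.46). The number of the 10 genes called was 1, IGF2R, with medians of ratios, quantile normalization, a minimum mean of 5 TPM and without mitochondrial and ribosomal protein genes, and 0 in every other alternative. The number of all genes called was 421. In the settings where IGF2R passed, it was 533 with medians of ratios and 587 with quantile normalization. It was 514 without mitochondrial and ribosomal protein genes, and 372 of 9889 genes tested at a minimum mean of 5 TPM. It was 133 without a filter, 279 without trend and 185 with a replicate block. With each tumor left out in turn it ranged from 107 to 669, where 669 was without control tumor 2, and the 10 genes had 0 calls each time. The difference in the IGF1R share was -5.94 percentage points without irradiated tumor 3 and positive with any other tumor left out, up to 4.44. The call of PIK3R2 was kept in the 15 alternatives fixed at the start and lost when summed over overlapping exons, an alternative chosen after seeing the data. The cause of these changes was not tested.

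Same-numbered tumors did not deviate together (correlations of -0.043, -0.046 and -0.059 for numbers 1, 2 and 3), and no tumor correlated best with its own number, so the replicate block pairs tumors by number only. TPM keeps no depth, so precision rests on 3 tumors per group.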
